A study of Mus musculus with 14 samples.

Results

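An HA antibody used on mouse embryonic stem cells that carry no HA tag recovered 3979 genomic regions, and input chromatin of the same cell type gave 2236. Both lists came from ChIP-seq (chromatin immunoprecipitation followed by sequencing), in which fixed, sheared chromatin is pulled down with an antibody and its DNA sequenced, while input is sheared chromatin set aside before the antibody is added. The members described here are these 6215 regions, of 351659 in the 7 peak lists of the series. A region was a unique interval of a list, and an untagged region that overlapped an input region by at least 1 bp was called shared. This rule gave 2563 antibody-only regions, 1416 shared regions and 437 input-only regions.

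The untagged HA ChIP came from E14 mouse embryonic stem cells without a tag, and the labels do not say whether these cells had received doxorubicin. The input came from E14 cells given 1 µM doxorubicin, a topoisomerase poison that breaks DNA, for 6 h, followed by 6 h in drug-free medium and harvest at 12 h. Further lists of the study covered an HA ChIP of p53 and the histone marks H3K27ac and H3K9me3 after doxorubicin and after DMSO vehicle. All cells were grown on gelatin in medium with LIF and inhibitors of MEK and GSK3, and were fixed with 1% formaldehyde for 10 min. Each list was called by the authors on its 2 libraries pooled, so no value below has a replicate check, no test was possible, and the intervals given (Wilson, 95%) reflect counting error alone. An effect of the antibody and an effect of doxorubicin on the cells cannot be told apart in this comparison. Of 10 embryonic stem cell marker genes, all 10 had a vehicle H3K27ac region within 1000 bp of a gene end, against 3 of 10 fibroblast markers (Col1a1, Fn1 and Vim).

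An untagged ChIP is the usual negative control of an epitope-tag experiment, since whatever it recovers was not bound through the tag. Sequence that is present in more copies in the cells than in the reference assembly, such as satellite repeats, ribosomal DNA and mitochondrial DNA, piles up in input and ChIP alike. Open and highly transcribed chromatin is known to be recovered by many antibodies regardless of their target. Heat shock genes encode chaperones, the proteins that help others to fold, and are among the most strongly inducible genes. Their promoters carry the heat shock element, an array of inverted GAA units bound by the heat shock factors.

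The promoter windows of 6 genes under strong antibody-only regions are shown, 5 picked because they hold a heat shock element and 1 because it lies under the highest region. They do not stand for the chaperone genes as a group. Of the 17 chaperone family genes with a strong region, 11 had a window of their own under it. Of these 11, 8 had no match to the 3-unit element in that window (Cct3, Cct5, Dnaja1, Dnajb1, Hspa1a, Hspa1b, Hspa1l and Hspb1). The region of Dnaja1 also touched the window of Gm6297, which held a match. Hspa8, Hsp90ab1, Cct4, Cct7, Cct8 and Tcp1 had no window of their own under a strong region, so these counts do not cover them. The sequences are RefSeq windows on GRCm38.p6 (the assembly behind mm10) that run from 250 bases before to 50 bases after an annotated start, printed 5′ to 3′ in the direction of the gene. Capitals mark the heat shock element of 3 units, GAANNTTCNNGAA on either strand, and the motif was chosen after the gene names had been seen. Hspe1 lies at chr1:55087898-55088197 on the plus strand and encodes the mitochondrial co-chaperonin Hsp10. Hsph1, which encodes an Hsp110 chaperone, lies at chr5:149636287-149636586 on the minus strand. Hnrnpa2b1, which encodes an RNA-binding protein, lies at chr6:51469845-51470144 on the minus strand. Chordc1, an Hsp90 co-chaperone, lies at chr9:18292017-18292316 on the plus strand, and Ccnd3, which encodes cyclin D3, at chr17:47593217-47593516 on the plus strand. The window of Xpnpep3, at chr15:81399888-81400187 on the plus strand, lies under the highest antibody-only region and holds no such match.
Hspe1: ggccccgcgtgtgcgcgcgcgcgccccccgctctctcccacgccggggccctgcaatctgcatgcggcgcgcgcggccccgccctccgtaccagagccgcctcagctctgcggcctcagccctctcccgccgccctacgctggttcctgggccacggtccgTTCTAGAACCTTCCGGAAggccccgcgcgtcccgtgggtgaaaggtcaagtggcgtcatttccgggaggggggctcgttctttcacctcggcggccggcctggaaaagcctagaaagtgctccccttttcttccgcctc
Hsph1: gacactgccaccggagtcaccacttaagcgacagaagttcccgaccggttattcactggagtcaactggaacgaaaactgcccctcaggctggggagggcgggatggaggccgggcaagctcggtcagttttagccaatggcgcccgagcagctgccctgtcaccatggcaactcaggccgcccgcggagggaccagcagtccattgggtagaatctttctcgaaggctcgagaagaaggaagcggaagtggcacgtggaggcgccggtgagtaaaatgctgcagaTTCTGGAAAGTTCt
Hnrnpa2b1: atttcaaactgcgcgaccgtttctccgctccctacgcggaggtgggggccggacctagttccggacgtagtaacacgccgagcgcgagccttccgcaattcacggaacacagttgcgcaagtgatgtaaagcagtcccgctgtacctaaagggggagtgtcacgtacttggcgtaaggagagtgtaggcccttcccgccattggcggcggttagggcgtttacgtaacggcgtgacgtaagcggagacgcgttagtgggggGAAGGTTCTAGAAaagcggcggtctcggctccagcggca
Chordc1: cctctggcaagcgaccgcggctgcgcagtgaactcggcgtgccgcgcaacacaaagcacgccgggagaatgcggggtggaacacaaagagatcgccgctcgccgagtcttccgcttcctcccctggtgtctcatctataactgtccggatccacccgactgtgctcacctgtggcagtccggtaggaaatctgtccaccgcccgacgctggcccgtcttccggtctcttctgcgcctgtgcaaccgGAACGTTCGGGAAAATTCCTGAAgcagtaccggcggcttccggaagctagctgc
Ccnd3: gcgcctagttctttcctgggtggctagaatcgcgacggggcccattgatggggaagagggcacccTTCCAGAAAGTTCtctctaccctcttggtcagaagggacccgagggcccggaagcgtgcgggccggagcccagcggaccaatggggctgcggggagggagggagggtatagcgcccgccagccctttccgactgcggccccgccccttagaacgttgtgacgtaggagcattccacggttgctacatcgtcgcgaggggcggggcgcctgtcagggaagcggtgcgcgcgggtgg
Xpnpep3: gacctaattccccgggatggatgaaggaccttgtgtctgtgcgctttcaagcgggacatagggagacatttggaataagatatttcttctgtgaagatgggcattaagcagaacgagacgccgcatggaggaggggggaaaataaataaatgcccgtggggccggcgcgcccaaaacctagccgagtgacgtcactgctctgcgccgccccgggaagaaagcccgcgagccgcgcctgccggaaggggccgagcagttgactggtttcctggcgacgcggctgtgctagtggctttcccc
In Hspe1 the capitals cover bases 162 to 179 of the window and in Chordc1 bases 247 to 269, each a run of overlapping matches. Hsph1, Hnrnpa2b1 and Ccnd3 each had a single match of 13 bases.

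Most untagged regions had no counterpart in the input, whereas most input regions recurred in the untagged list. The antibody-only regions made up 64.4% of the untagged list (62.9 to 65.9%) but only 35.1% of its covered length, 1260 kb. The shared regions made up 35.6% of the untagged list (34.1 to 37.1%) and 2329 kb, and they matched 1799 input regions, 80.5% of the input list (78.8 to 82.1%). Input-only regions covered 156 kb. With both lists cut to the 2236 regions of highest −log10 q, 1122 regions were antibody-only and 741 input-only.

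Levels are given in FPM, the fragments piled up at the highest summit of a region per 1000000 fragments of its list, because the untagged list was drawn from 49588950 fragments and the input list from 16583331. Antibody-only regions had a median of 0.686 and a maximum of 13.7 FPM. Shared regions had a median of 0.988 in the untagged ChIP and 1.03 in the matching input regions, with maxima of 2197 in the untagged ChIP and 4907 in the input. The 437 input-only regions had a median of 0.724. These medians sit close to what the caller could list, which was 24 fragments or 0.484 FPM in the untagged ChIP and 10 fragments or 0.603 FPM in the input. Of the antibody-only regions, 782 (30.5%) lay below the lowest level listed for the input. Of the input-only regions, 251 (57.4%) held 10 to 12 fragments and 10 held at least 20.

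**Figure D1:**
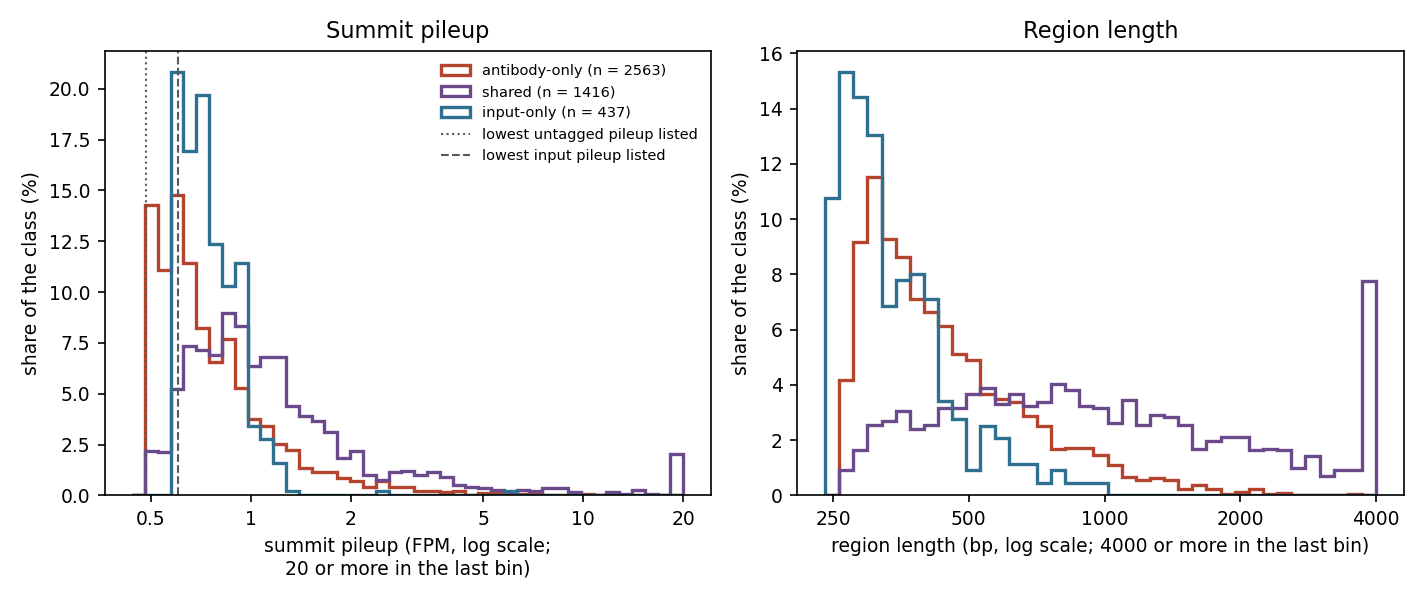
Distributions of summit pileup (left, FPM, log scale) and region length (right, bp, log scale) as shares of each class, for antibody-only (red), shared (purple) and input-only regions (blue). Vertical lines mark the lowest listed level, 0.484 FPM for the untagged ChIP (dotted) and 0.603 for the input (dashed); shared regions are longer and have the long upper tail.

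The classes differed in shape. Antibody-only regions had a median length of 398 bp, and 86.2% had a single summit. Shared regions had a median of 859 bp, 42.9% had a single summit, and 611 of them (43.2%) were longer than 1000 bp, against 132 antibody-only regions (5.15%) and 0 input-only regions. Input-only regions had a median of 315 bp, and 99.1% had a single summit. The fragments themselves were 269 bp long in the untagged ChIP and 243 bp in the input, so the shortest region each list could hold also differed.

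In the shared regions the untagged ChIP and the input reached nearly the same level. The ratio of the untagged to the input level had a median of 0.975, and the middle 80% of regions lay between 0.686 and 1.44. It was above 1 in 673 of the 1416 regions (47.5%). Only 10 shared regions (0.706%) were more than 2-fold higher in the untagged ChIP and 11 were more than 2-fold lower. The median ratio was 1.02 in the 660 regions with under 1 FPM of input and 0.919 in the 34 regions of at least 10. In the strongest regions the 10% quantile was 0.454 and 5 of 34 regions were more than 2-fold lower in the untagged ChIP, against 0.735 and 0 of 660 in the weakest. This contrast is no finding. With input under 1 FPM and no untagged region listed below 0.484 FPM, a ratio that low could hardly occur in the weakest regions.

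**Figure D2:**
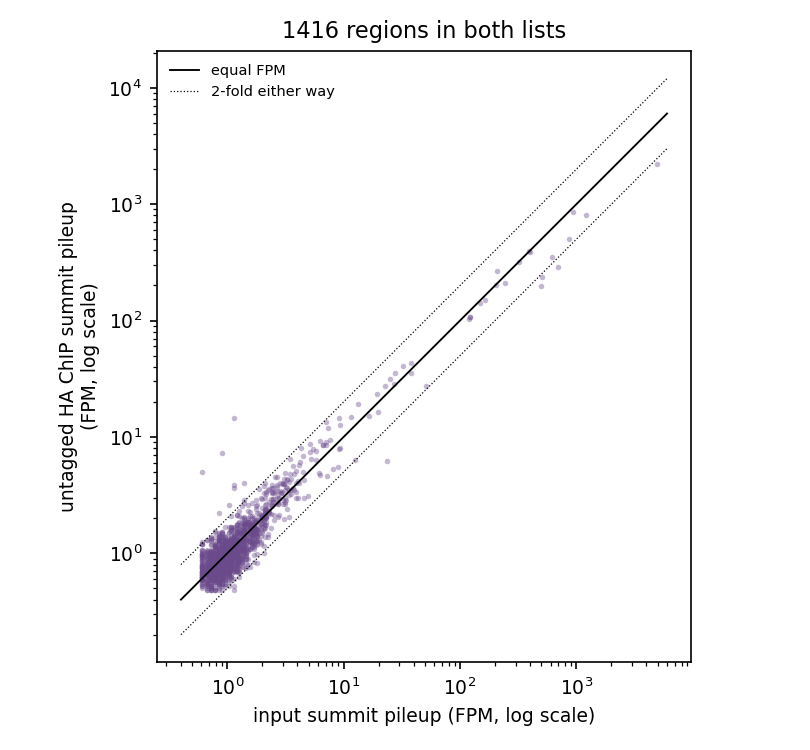
Summit pileup in the untagged HA ChIP against that in the input for the 1416 shared regions, both in FPM on log axes; the solid line marks equal levels and the dotted lines 2-fold differences. Most points lie between the dotted lines, with 10 above the upper dotted line and 11 below the lower.

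The strongest shared regions were high in both lists. On chromosome 2 a region of 1130 bp at chr2:98666218-98667347 reached 2197 FPM in the untagged ChIP against 4907 in the input. On chromosome 9 the region chr9:2999983-3038338, which ends within 1000 bp of the microRNA gene Mir101c, reached 851 FPM in the untagged ChIP against 941 in the input. On chromosome 14, chr14:19415682-19419716 reached 811 FPM in the untagged ChIP against 1218 in the input. A second region of chromosome 14, chr14:124801542-124802261, reached 392 in the untagged ChIP against 389 in the input. The region chr9:35305205-35305608 within Gm33838 reached 502 in the untagged ChIP against 867 in the input. All 5 also overlapped regions of both vehicle histone lists, with 328 to 2797 FPM in H3K27ac and 1135 to 6153 in H3K9me3. Those lists were called without an input control, so these levels alone are no measure of the marks.

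Shared regions at annotated genes included multi-copy and organellar sequence. One region covered the mitochondrial genome from base 4 to base 16299 and with it all 15 mitochondrial protein and ribosomal RNA genes, at 27.5 FPM in the untagged ChIP against 50.6 in the input. At Rn18s-rs5, an 18S ribosomal RNA related sequence, the level was 19.3 in the untagged ChIP against 13.3 in the input. Of 18 loci listed for their copies outside the assembly, 6 had a shared region, 2 an antibody-only region (Erdr1, which had both, and Hjurp) and 0 an input-only region. Mid1 reached 7.89 in the untagged ChIP against 5.43 in the input. Erdr1 reached 3.01 in the untagged ChIP against 2.11 in the input, and both genes lie in or at the pseudoautosomal region of the sex chromosomes. Sfi1 and Pisd-ps1 lay at the same region of chromosome 11, at 1.98 in the untagged ChIP against 3.08 in the input. A region near Wls, which encodes a carrier of Wnt proteins, reached 107.6 FPM in the untagged ChIP against 120.6 in the input.

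A few shared regions were many-fold higher in the untagged ChIP. The region chr9:32354441-32356405 within Gm39317 reached 14.5 FPM in the untagged ChIP against 1.15 in the input, a 12.7-fold difference. A region on chromosome 3 from 19866637 to 19867075 reached 4.98 in the untagged ChIP against 0.603 in the input. Both also overlapped p53 ChIP regions, with 9.99 FPM on chromosome 9 and 4.07 on chromosome 3, as did 6 in all of the 10 regions above 2-fold.

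Antibody-only, shared and input-only regions all crowded into the same short stretches of the genome. The 25 densest 1-Mb bins held 32.5% of antibody-only, 66.9% of shared and 41.9% of input-only regions, against 2.38% of the vehicle H3K27ac list and 3.69% of the vehicle H3K9me3 list. Chromosomes 4, 8 and 14 together held 30.9% of antibody-only, 47.2% of shared and 38.0% of input-only regions, against 16.8% of the H3K27ac and 16.5% of the H3K9me3 list. Not each of them was high in every class. Chromosome 8 held 13.6% of shared but only 6.01% of antibody-only and 5.95% of input-only regions, against 5.84% of the H3K27ac list. Chromosome 17, outside this group, held 7.45% of antibody-only and 10.8% of input-only regions, against 4.98% of the H3K27ac list. The bins were ranked on these same regions, so the excess in them is a description.

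**Figure D3:**
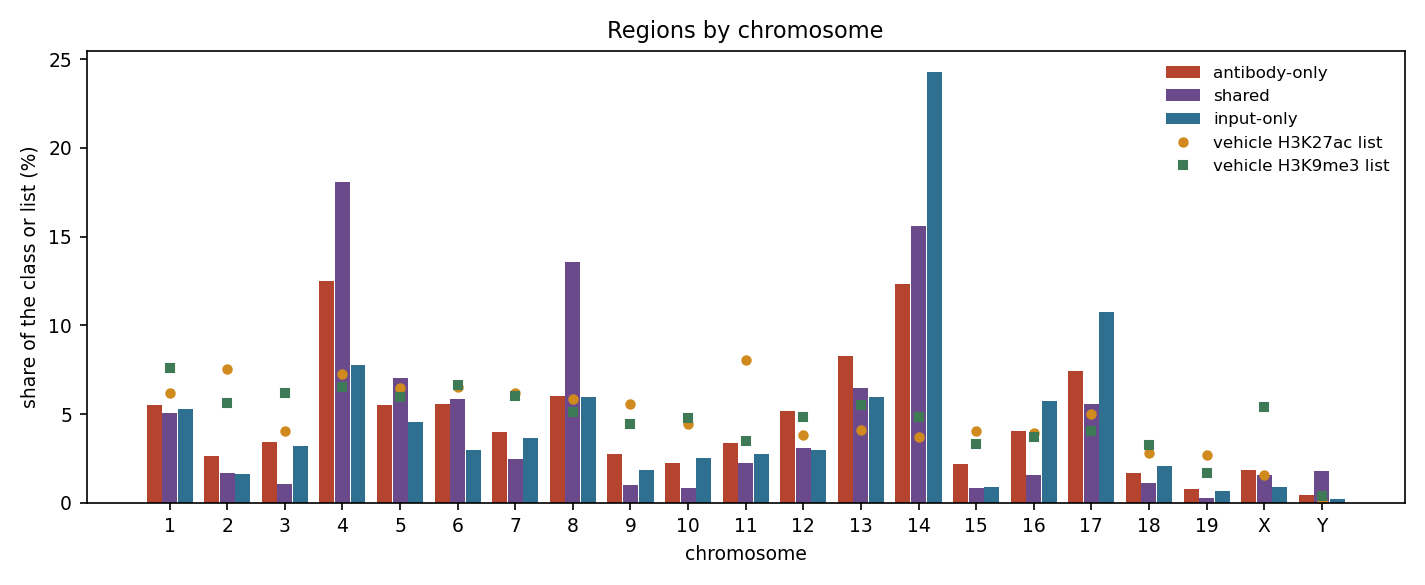
Share of each class on each chromosome (bars: antibody-only red, shared purple, input-only blue) beside the share of the vehicle H3K27ac list (circles) and of the vehicle H3K9me3 list (squares). Chromosomes 4, 8 and 14 stand out for the shared regions, and chromosome 14 holds 24.3% of the input-only regions.

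The densest stretches are clusters of duplicated genes. On chromosome 4 from 145 to 148 Mb, where 16 zinc finger genes such as Zfp980 and Zfp982 lie, there were 233 antibody-only, 231 shared and 23 input-only regions. On chromosome 8 from 19 to 21 Mb, the beta-defensin cluster and its flank, there were 54 antibody-only, 156 shared and 10 input-only regions. On chromosome 14 from 3 to 8 Mb, where 153 of 168 annotated genes carry only a predicted Gm name, there were 153 antibody-only, 184 shared and 70 input-only regions. Smaller clusters lay on chromosome 5 at the Speer4 genes, on chromosome 12 within the immunoglobulin heavy chain variable genes and on chromosome 1 at a tRNA cluster beside the Fc receptor genes.

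Overlap with the histone marks split the antibody-only regions by their height. Over all antibody-only regions, 45.0% (43.1 to 47.0%) overlapped vehicle H3K27ac, the mark of active promoters and enhancers, and 42.3% (40.4 to 44.3%) overlapped vehicle H3K9me3, the mark of heterochromatin. Among the 44 with at least 5 times the lowest level listed for input, 93.2% overlapped H3K27ac and 11.4% H3K9me3. In the range of 2 to 5 times that level (271 regions) the shares were 75.3% and 11.1%. Below that level (782 regions) they were 35.8% and 51.3%. Over the 5 steps of height the share with H3K27ac was higher at each step, and the interval was 81.8 to 97.7% at the strongest step against 32.5 to 39.2% at the weakest.

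**Figure D4:**
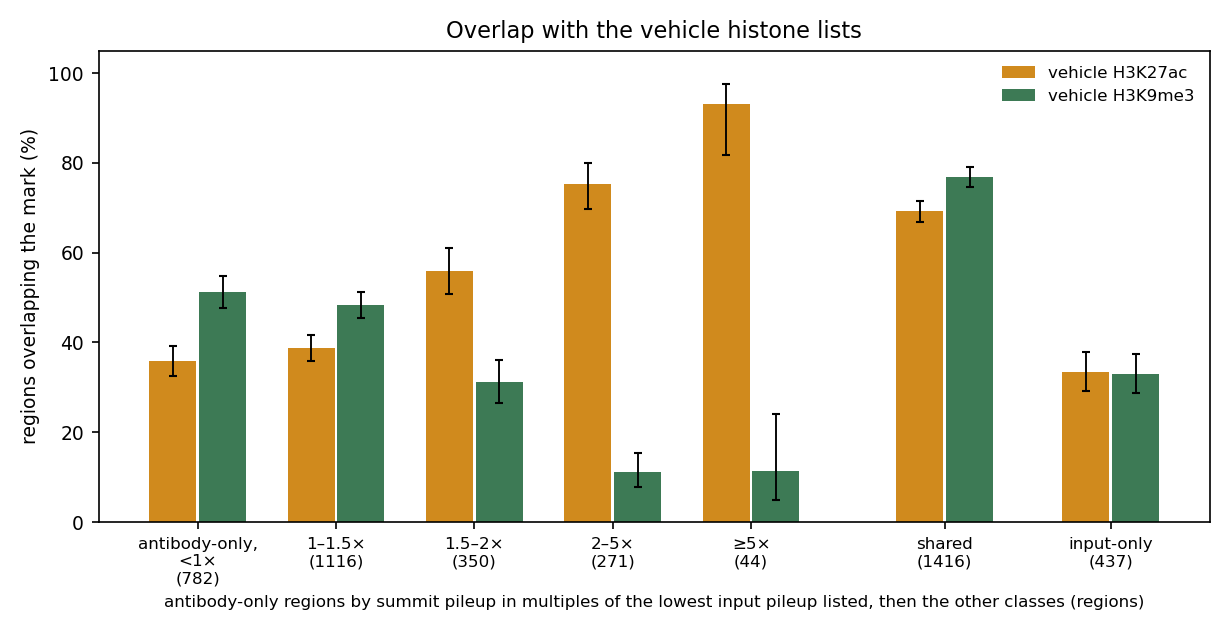
Percentage of regions overlapping a vehicle H3K27ac (orange) or vehicle H3K9me3 region (green), with 95% Wilson intervals, for antibody-only regions in 5 steps of summit pileup and for the shared and input-only classes; the number of regions is in brackets. H3K27ac reaches 93.2% at the strongest antibody-only regions with H3K9me3 at 11.4%, and shared regions overlap both marks often.

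Shared regions overlapped H3K27ac in 69.2% and H3K9me3 in 77.0% of cases, and 56.7% overlapped both. The histone lists were called without an input control, so pileup that is present in input can count as overlap here. How much of it did was not tested. The region of the mitochondrial genome, for 1, was in both vehicle lists, at 1.259 FPM in H3K27ac and 31.45 in H3K9me3. In the antibody-only class 15.3% overlapped both and in the input-only class 10.8%. Counted among regions with vehicle H3K27ac, 803 of 980 shared, 391 of 1154 antibody-only and 47 of 146 input-only regions also overlapped H3K9me3. Over the whole vehicle H3K27ac list, 7351 of 82177 regions (8.95%) did. Among regions of up to 500 bp both marks were found at 12.1% of antibody-only, 33.5% of shared and 10.2% of input-only regions. Where a shared region overlapped H3K27ac, the FPM of the H3K27ac list was a median of 0.922 times the untagged FPM, and that of the H3K9me3 list 1.51 times. Input-only regions overlapped H3K27ac in 33.4% and H3K9me3 in 33.0% of cases, and 44.4% had neither mark.

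The 315 antibody-only regions with at least 2 times the lowest level listed for input are called strong below, a threshold chosen after the levels had been seen. Of these, 77.8% (72.9 to 82.0%) overlapped vehicle H3K27ac and 11.1% (8.10 to 15.1%) H3K9me3, against 40.4% and 46.7% of the 2248 weaker ones. Strong regions were also rarer in the 25 densest bins, at 5.08% (3.15 to 8.09%) against 36.3% (34.3 to 38.3%) of the weaker. The bins were ranked on counts that include these same regions, most of them weaker, so this contrast is a description too. Promoter windows were touched by 13.7% of strong and 2.62% of weaker regions, and a gene end lay within 1000 bp of 30.2% of strong and 15.5% of weaker regions.

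Strong antibody-only regions lay at many genes of protein folding. Of 80 genes of the Hsp70, Hsp90, Hsp60, Hsp10, small heat shock, J-domain and CCT families, 19 (23.8%) had an antibody-only region within 1000 bp of a gene end, 17 of them a strong one. No gene of these families had a shared or an input-only region. Over all 49976 annotated genes, 0.988% had an antibody-only region and 0.238% a strong one, and over the 21896 protein-coding genes the shares were 1.05% and 0.347%. Of protein-coding genes with vehicle H3K27ac at an end, 1.69% had an antibody-only region, against 19 of the 73 chaperone genes with that mark. The families were listed whole, by name, after several of these genes had been seen at the top of the list, so the count is a description.

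Levels at the chaperone genes ranged from 0.867 to 10.6 FPM, with a median of 1.80 over their 19 regions. Hspa8, which encodes the constitutive cytosolic Hsp70, had a region of 772 bp at chr9:40800998-40801769 with 10.6 FPM. The shared promoter of Hspd1 and Hspe1, the mitochondrial Hsp60 and Hsp10, had 7.44 FPM at chr1:55087928-55088229. Hsp90ab1, the constitutive cytosolic Hsp90, had 2 regions, of which the higher at chr17:45572233-45572877 reached 6.92. Hsph1 reached 5.53. The heat-inducible Hsp70 genes Hspa1b and Hspa1a had 1.67 and 1.31 FPM, and the region of Hspa1a also reached Hspa1l. Hspa1a and Hspa1b are nearly identical copies, so fragments could be assigned to either of them. No input region overlapped any of them.

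The CCT ring, the chaperonin that folds actin and tubulin, had regions at most of its genes. Of its 8 subunit genes, 7 had an antibody-only region: Cct7 reached 3.41 FPM, Tcp1 2.24, Cct3 1.80, Cct5 and Cct8 1.53, Cct4 1.27 and Cct6a 0.948. Cct2 had none, although it carried vehicle H3K27ac like the other 7. Of 14 Hsp70 and Hsp110 genes 6 had a region, and Hspa5, the Hsp70 of the endoplasmic reticulum, had none. Of 3 Hsp90 genes only Hsp90ab1 had one, and Hsp90aa1 and Hsp90b1 had none. Of 43 J-domain genes, which encode co-chaperones of Hsp70, Dnaja1 (2.52 FPM) and Dnajb1 (1.90) had one, and Hspb1 (1.71) was the only one of 8 genes named Hspb.

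**Figure D5:**
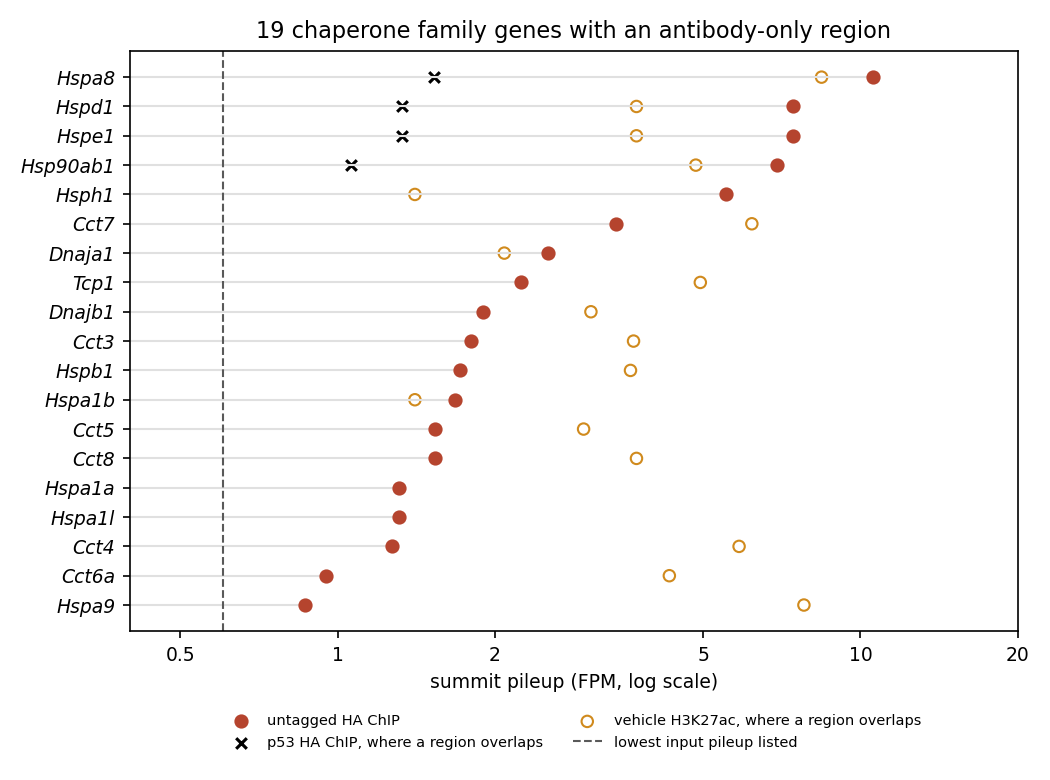
Summit pileup (FPM, log scale) at the 19 chaperone family genes with an antibody-only region, in the untagged HA ChIP (red dots), in the p53 HA ChIP (crosses) and in vehicle H3K27ac (open circles) where a region of those lists overlaps; genes that share a region have equal values. The dashed line is the lowest input level listed, 0.603; the untagged values run from 0.867 to 10.6, and 4 genes have a p53 value.

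The chaperone regions lay in acetylated chromatin. Of the 19 regions, 18 overlapped vehicle H3K27ac, 17 doxorubicin H3K27ac and 0 vehicle H3K9me3. The heights of the untagged signal and the mark differed between genes. Hspa9, the mitochondrial Hsp70, had 0.867 FPM of untagged signal and 7.80 of vehicle H3K27ac, whereas Hsph1 had 5.53 and 1.41. Only 3 of the 19 regions overlapped a p53 ChIP region, at Hspa8, Hspd1 with Hspe1, and Hsp90ab1, with p53 levels of 1.53, 1.33 and 1.06 FPM. These are the chaperone genes with some of the highest untagged levels, so the order of untagged and p53 levels at them is no finding.

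Other genes at strong regions whose products work with chaperones were picked by hand after their values were seen, so they have no list, count or background. The region of highest pileup in the class lay between St13, which encodes an Hsp70-interacting co-chaperone, and Xpnpep3, at chr15:81399379-81400394, with 13.7 FPM in the untagged ChIP and 2.54 in the p53 ChIP. Fkbp4, an immunophilin that binds Hsp90, reached 4.32, and Stip1, the adaptor between Hsp70 and Hsp90, 3.41. Serpinh1, a collagen chaperone, reached 2.56, Ahsa1, an activator of Hsp90, 2.00, and Chordc1 1.82. The Hsp70 nucleotide exchange factor Hspbp1 and the Hsp70 nuclear import carrier Hikeshi both had 1.69. The windows of Xpnpep3, Fkbp4, Stip1, Serpinh1, Ahsa1, Hspbp1 and Hikeshi held no 3-unit match.

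Most strong antibody-only regions lay away from the chaperone family genes. Of the 315 strong regions, 17 lay within 1000 bp of an end of such a gene. Of the 44 with at least 5 times the lowest level listed for input, 6 did. Regions within Taf4b and Mocos, a TFIID subunit and a molybdenum cofactor sulfurase, reached 8.31 and 7.36 FPM. Ly6k and Lgals7, a membrane protein of germ cells and a galectin, reached 6.72 and 5.93, with vehicle H3K27ac of only 0.727 and 0.436 FPM. Hnrnpa2b1 reached 4.19 in the interval it shares with Cbx3. Among the 19 regions of at least 5 times the lowest input level that no p53 region overlapped, 17 overlapped vehicle H3K27ac and 0 vehicle H3K9me3. Among the 25 with a p53 region, 24 and 5 did.

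The letters of the 3-unit heat shock element were found in promoter windows of both strong and weaker antibody-only regions, and in none of the shared or input-only class. Strong regions touched 61 RefSeq windows of 53 genes, and 13 windows (21.3%, 12.9 to 33.1%) held GAANNTTCNNGAA on either strand, against 198 of all 32851 windows (0.603%). Windows of the same gene overlap, and counted by region 8 of 43 strong regions (18.6%) touched a window with a match. The genes were Hspd1, Hspe1, Hsph1, Hnrnpa2b1, Ccnd3, Chordc1, H2ac7 with H2bc7, and the predicted genes Gm6297 (next to Dnaja1) and Gm3458. Weaker antibody-only regions had a match in 7 of 59 (11.9%), at genes that include Slc35c1, Art3 and Lingo3. Shared regions had it in 0 of 59, input-only regions in 0 of 4, and vehicle H3K27ac regions in 42 of 8080 (0.520%).

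A shorter and an unrelated motif gave a scale for these shares. The 2-unit form GAANNTTC, which lies within every 3-unit match, was found in 36.1% of windows at strong regions, 17.9% at weaker ones, 4.84% at shared regions and 7.86% of all windows. CCAAT, a common promoter motif, was found on either strand in 47.5%, 49.3%, 41.9% and 37.4% of them. The windows at strong regions also held more CpG dinucleotides, with a median of 22, against 13 at weaker, 3 at shared and 7 in all windows, while windows at vehicle H3K27ac regions had 19. A match is a run of letters in a window and is no measure of binding, and no match says only that these letters are not in that window.

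Small RNA genes transcribed by RNA polymerase III carried regions of every class, and the antibody-only ones were weak. Of 408 nuclear tRNA genes, 39 (9.56%) had an antibody-only region, 12 (2.94%) a shared and 2 (0.490%) an input-only region, against 0.988%, 0.7% and 0.152% of all annotated genes. The antibody-only ones lay at 17 regions of at most 0.968 FPM, and no tRNA gene had a strong one. The 12 tRNA genes with a shared region lay at only 5 regions, of at most 1.875 FPM, and 10 of the 12 are on chromosome 1. These gene shares therefore count some regions several times. Of 51 genes of the 5S ribosomal RNA series n-R5s, 8 (15.7%) had an antibody-only, 19 (37.3%) a shared and 4 (7.84%) an input-only region, all on chromosome 8, where 40 of the genes lie. The shared ones reached at most 2.46 FPM.

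Most other gene groups were nearly free of regions of any class. None of 25 pluripotency genes had one, although 24 carried vehicle H3K27ac, nor did any of 1117 olfactory receptor genes. Of 35 p53 target genes Pmaip1, which encodes the apoptosis inducer Noxa, had an antibody-only region of 0.827 FPM. Of 30 imprinted genes Meg3 had one of 1.33, and of 27 genes of the 2-cell-like state Gm5662 and Tdpoz4 had weak ones of 0.726. Of 85 ribosomal protein genes, of which 80 carried vehicle H3K27ac, Rpl38 and Rps13 had an antibody-only region and 0 a shared one. Of 25 genes with abundant transcripts, Hspa8, Hsp90ab1, Hnrnpa2b1 and Ubb had strong antibody-only regions. Of 73 histone genes only the pair H2ac7 and H2bc7 had one, at 1.37. The zinc finger genes had an antibody-only region at 12 of 372, a shared one at 11 and an input-only one at 2, and 10 of the 12 and 10 of the 11 lay in the cluster on chromosome 4.

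Input-only regions were few and weak. The strongest, at chr2:66189208-66189464 within Ttc21b, a gene of the primary cilium, reached 5.85 FPM, and 48.0 in vehicle H3K9me3. The next, within Gm10406 on chromosome 14 from 7019342 to 7020129, reached 2.41, and all others were at 1.33 or less. Genes at input-only regions made up 0.152% of all annotated genes, against 0.988% for antibody-only and 0.7% for shared regions. Of these 76 genes, 45 carry only a predicted Gm name. So do 191 of the 350 genes at shared regions, 193 of the 494 at antibody-only regions and 21792 of all 49976 genes. Genes at the input-only regions of highest pileup include Gm38418, Gm3127, n-R5s131 and Vmn2r-ps15. Gene ends lay within 1000 bp of 17.3% of antibody-only, 25.2% of shared and 15.8% of input-only regions.

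The p53 ChIP, made with the same antibody in cells with tagged p53, overlapped 217 antibody-only (8.47%), 155 shared (10.9%) and 6 input-only regions (1.37%). At these 217 antibody-only regions the untagged level was the higher one in 85, with medians of 0.706 FPM in the untagged ChIP and 0.884 in the p53 ChIP. At the 155 shared regions it was the higher one in 70, with medians of 1.51 FPM in the untagged ChIP and 2.39 in the p53 ChIP. The antibody-only class also holds regions picked out above for a high untagged level, for which the order of both levels is largely set by that choice.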

How the data were processed

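Peaks were called by the authors with MACS2 2.2.5 on the 2 pooled paired-end libraries of each group, with a q cutoff of 0.05 and 1 fragment kept per position, per the file headers. Input served as the control of the untagged list and no control was set for the input list, both with a genome-wide background, so local input was not subtracted. The histone lists were also called without a control, so sequence that piles up in input could be listed in them as well. Alignment used Bowtie2 2.2.6 and mm10, per the submitters' processing notes, and the files add 1 contig. For reads with several alignments, no source used here gives the treatment. The deposited signal is the fragment pileup at a summit, the deposited −log10 column used here holds q values, and the deposited fold enrichment is the caller's ratio of pileup to background. Untagged pileups of 7388 summits were whole multiples of 0.6688 within 0.0051 in 99.97% of cases, which is 2 times the depth ratio of 0.3344. They were therefore divided by that step to give fragments, and scaled to 1000000 fragments of the list, written FPM.

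Summits of 1 interval were joined into a region with the values of its highest summit. Depth was 49588950 fragments in the untagged ChIP and 16583331 in the input, so 1 fragment weighs more in the input. The RefSeq table of GRCm38.p6 gave 49976 genes and 32851 promoter windows of 27025 genes. A gene end is either end of a gene record. Named genes were the 10 at the regions of highest pileup in each class, list members at a region, and genes marked as chosen after their values were seen. A few genes that the rule names are not reported here. The members, the gene lists and the rule were chosen with earlier results of these data known. Overlap counting was tested on simulated data of 4000 regions against bedtools 2.31.1, with 0 differing. Python 3.11.15, numpy 2.4.6, pandas 2.3.3 and matplotlib 3.10.9 were used.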

Additional observations from a re-analysis of the deposited data

How the results depend on the processing

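No paired analysis was possible because libraries of 1 group were pooled before calling, and for the same reason no replicate could be left out. Of the values that answer a comparison, 53 of 88 held and 35 moved by more than the limits set (1.5 times for a count, the Wilson interval for a share), and the cause was not tested. With −log10 q of at least 5 in both lists, 902 regions were shared and 125 input-only, H3K27ac was at 53.8% of antibody-only, 79.2% of shared and 38.4% of input-only regions, and H3K9me3 at 81.6% of shared and 46.4% of input-only regions. With regions within 1000 bp merged, H3K27ac was at 49.2% and H3K9me3 at 40.1% of antibody-only regions, and H3K9me3 at 80.1% of shared ones. With equal list lengths, 1122 regions were antibody-only and 741 input-only, H3K27ac was at 58.4%, 75.3% and 38.3% of antibody-only, shared and input-only regions, and H3K9me3 at 29.6%, 82.8% and 41.6%. With histone regions of −log10 q of at least 5, H3K27ac was at 35.4%, 56.8% and 25.4%, and H3K9me3 at 35.8%, 67.9% and 26.5%. The other settings were added after the data were seen. Without untagged regions below the lowest input level, H3K27ac was at 49.1% and H3K9me3 at 38.4% of antibody-only regions. Without regions at a p53 region, H3K27ac was at 42.2% of antibody-only and 66.1% of shared regions, and H3K9me3 at 40.2% of antibody-only ones. Without the 25 densest bins, 469 regions were shared and 254 input-only, H3K27ac was at 52.9% of antibody-only and 73.4% of shared regions, and H3K9me3 at 39.0% and 83.2%. The 19 chaperone genes stayed 19 in number under every setting but the one without p53 regions, where 16 were counted. The input had fewer fragments than the untagged ChIP, so absence from its list at levels near 0.603 FPM was not detectable at this depth.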

Other observations

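Over all antibody-only and all shared regions, overlap with the doxorubicin histone lists was close to that with the vehicle lists. The doxorubicin lists are longer, with 112259 against 82177 H3K27ac and 78890 against 60836 H3K9me3 regions. Doxorubicin H3K27ac was found at 46.5% of antibody-only and 70.0% of shared regions, and doxorubicin H3K9me3 at 44.8% and 77.1%. At input-only regions the shares were 37.8% and 38.7%, against 33.4% and 33.0% for the vehicle lists. At strong antibody-only regions doxorubicin H3K27ac was found in 70.2%, against 77.8% for vehicle H3K27ac. Unplaced or unlocalised sequence held 52 antibody-only, 43 shared and 15 input-only regions, and the contig added by the authors held 2, 0 and 0.

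In all 3 classes the mark levels at overlapped regions lay above the median of the whole mark list. Where antibody-only regions overlapped vehicle H3K27ac, the H3K27ac list reached a median of 1.31 FPM, against 0.727 over that whole list. At shared regions the median was 1.21 and at input-only regions 1.07. For vehicle H3K9me3 the median was 1.69 FPM at antibody-only, 1.69 at shared and 1.16 at input-only regions, against 0.938 over the whole list. Where a region overlapped several regions of a mark the highest was taken, which can only raise these medians.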
